A study of Oryza sativa Japonica Group with 12 samples.

Results

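ICL (LOC4343441, probe set 16326303) is the rice gene for isocitrate lyase and lies on chromosome 7. It was chosen because its level differed between the lines of this study, so its own values are given as a description, without a test. It is 1 gene of the 24160 measured by a probe set that the annotation pairs with a single gene, and 1 probe set reads it. The table used for names lists it under the synonyms ICL and Isocitrase.

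Stem bases, the part of a rice plantlet in which crown roots form, were sampled at an age of 6 days. The overexpressing lines, OE 67.1 (67.1.11.7) and OE 67.5 (67.5.9.12), carried a construct named pC5300.OE-OsbHLH044 for the transcription factor gene OsbHLH044. Each was paired with a null segregant sister line that had no T-DNA, null 67.1 (67.1.1.5) and null 67.5 (67.5.13.4). All 4 lines, the nulls included, were in a crl1 mutant background of the cultivar Taichung 65 (japonica), which is known for lacking crown roots, so no line represents the wild type. Each line had 3 arrays from independent repetitions. Plantlets spent 5 days in dishes and 24 h in flasks at 27 °C with 14 h of daylight, and 8 to 12 pooled stem bases went into each extraction. Each couple is 1 overexpressing line and 1 sister, and the promoter that drives the transgene is not given in the sources used here. The levels of OsbHLH044 and CRL1 are not reported, because no annotated probe set carried either name.

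Isocitrate lyase splits isocitrate into succinate and glyoxylate. Malate synthase then joins glyoxylate to acetyl-CoA to give malate. Both steps belong to the glyoxylate cycle, which bypasses the steps of the citric acid cycle that release carbon dioxide. In plants the cycle works beside fatty acid beta-oxidation in glyoxysomes, a form of peroxisome, and lets acetyl-CoA from stored lipid feed the synthesis of sugars. It is best known from germinating seeds, and its genes are also known to be active in senescing and sugar-starved tissue.

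ICL was lower in the overexpressing line than in its null sister in both couples. In couple 67.1 the log2 RMA levels of ICL were 5.37, 5.36 and 5.29 on the OE 67.1 arrays, against 6.20, 6.21 and 6.14 on the null 67.1 arrays. In couple 67.5 they were 5.01, 4.73 and 4.63 on the OE 67.5 arrays, against 6.88, 6.69 and 6.58 on the null 67.5 arrays. Every overexpressing array lay below every null array, across couples as well as within them. No overlap with the overexpressing line lower was seen for 4.48% of the 24251 annotated probe sets in couple 67.1 and for 6.88% in couple 67.5. In both couples at once it was seen for 160 probe sets, or 0.66%. The values are from whole stem bases, in which fewer cells of a type and less RNA per cell cannot be told apart.

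The line means of ICL were 5.34 ± 0.048 in OE 67.1, 6.18 ± 0.037 in null 67.1, 4.79 ± 0.200 in OE 67.5 and 6.71 ± 0.153 in null 67.5 (log2 level, SD, n = 3 each). From the lowest up, the order was OE 67.5, OE 67.1, null 67.1 and null 67.5. No neighbours in this order overlapped. Arrays without overlap were seen for 11.4% of annotated probe sets with null 67.1 below null 67.5, and for 12.0% with OE 67.1 above OE 67.5. The gap between the nearest arrays was 0.275 between OE 67.5 and OE 67.1, 0.766 between OE 67.1 and null 67.1, and 0.369 between null 67.1 and null 67.5. ICL was the 1 annotated probe set of 24251 (0.00412%) whose 4 lines were separated in this order. The order was taken from ICL itself, so ICL was bound to be counted, and the count supports nothing further. Its 12 arrays covered a range of 2.25 on the log2 scale. The pooled SD of ICL within lines was 0.129, near the median of 0.135 over annotated probe sets, which put its spread at percentile 45.5. The repetitions of couple 67.1 lay closer together than those of couple 67.5.

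**Figure D1:**
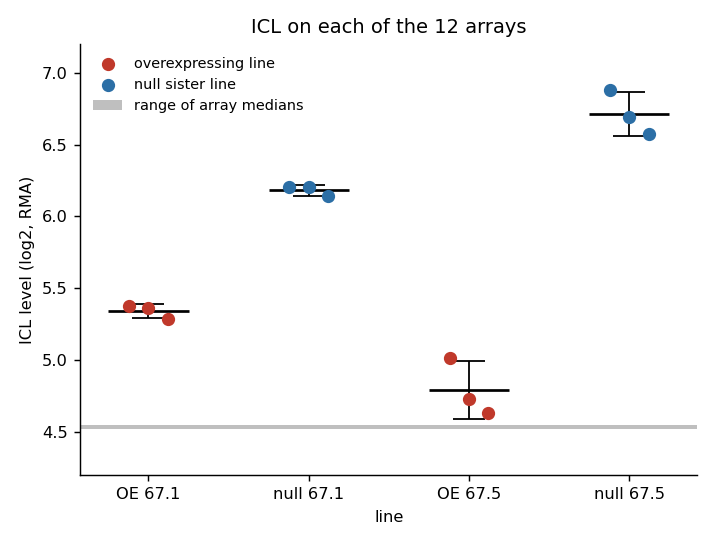
Log2 RMA level of ICL (vertical axis) on each of the 12 arrays, by line (horizontal axis), with overexpressing lines in red and null sister lines in blue. Black bars are the line mean and SD (n = 3), and the grey band is the range of the array medians over annotated probe sets, 4.52 to 4.55; the OE 67.5 arrays at 4.63 to 5.01 lie nearest to it and the null 67.5 arrays at 6.58 to 6.88 farthest from it.

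The place of ICL within the array differed between the lines as well. It stood at percentiles 67.3 to 70.1 of the annotated probe sets in OE 67.1, against 83.3 to 85.8 in null 67.1. In OE 67.5 it stood at percentiles 51.8 to 61.0, against 87.8 to 92.3 in null 67.5. ICL therefore lay in the upper part of the measured range in both null lines and close to the array median in OE 67.5. A percentile compares probe sets with different binding strengths, so it places ICL on the array and does not rank its transcript among transcripts.

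As the mean of both couples, ICL was lower with overexpression, with a log2 difference of -1.38 ± 0.08 (SE), which is 38.4% of the null level or 2.61-fold lower. In couple 67.1 the difference was -0.84 ± 0.11, and the OE 67.1 level was 55.8% of the null 67.1 level. In couple 67.5 it was -1.92 ± 0.11, and the OE 67.5 level was 26.4% of the null 67.5 level. Each SE rests on a spread shared by all 4 lines and moderated by limma, so it does not give the spread of 1 couple alone. Among 24251 probe sets, ordered from the most lowered, ICL held place 3 for the mean of both couples, place 9 in couple 67.1 and place 4 in couple 67.5. These places follow from how ICL was chosen and support nothing further.

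The change was larger in couple 67.5 than in couple 67.1, with a difference of the log2 changes of -1.08 ± 0.15 (SE) and a ratio of 2.29 between them. Both the overexpressing and the null lines differed between the couples. OE 67.1 lay above OE 67.5 by 0.55 ± 0.11, a level of 147% of OE 67.5. Null 67.1 differed from null 67.5 by -0.53 ± 0.11, a level of 69.2% of null 67.5. The null lines carry no T-DNA and belong to different couples, so the difference of ICL between them is one between couples, without the transgene. It stands beside -0.84 for the overexpressing line of couple 67.1 against its sister.

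The genes that work beside ICL were then examined for changes of their own. They were gathered by name into 5 lists with 59 measured genes. Each list covers only the genes that carry a recognisable name, and the lists were chosen with earlier results of these data known. In limma, with Benjamini-Hochberg adjustment over all 24251 probe sets and a threshold of 0.05, none of the 59 genes passed as the mean of both couples, where 0.186% of all probe sets passed. Before adjustment limma gave a p under 0.05 for 10 of the 59, 2 higher and 8 lower, against 9.0% of all probe sets. By sign, overexpression went with a higher level in 26 genes and a lower one in 33, and the median of the 59 log2 differences was -0.01, against 0.01 over all probe sets. The range ran from -1.04 to 0.24, while ICL itself stood at -1.38.

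None of the 59 passed in limma in couple 67.1, where 0.0165% of all probe sets passed, or in couple 67.5, where 0.342% did. An unadjusted p under 0.05 was reached by 6 of them in couple 67.1, against 3.46% of all probe sets, and by 10 in couple 67.5, against 10.8%. Their median log2 difference was -0.04 in each couple. The lists therefore gave no call beside the difference of ICL, and the smallest adjusted p was 1.0 in couple 67.1 and 0.12 in couple 67.5. The change did not differ between the couples past the threshold for any of the 59 (0.033% of all probe sets passed; unadjusted p under 0.05 for 5, against 5.0% of all probe sets, smallest adjusted p = 0.588).

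**Figure D2:**
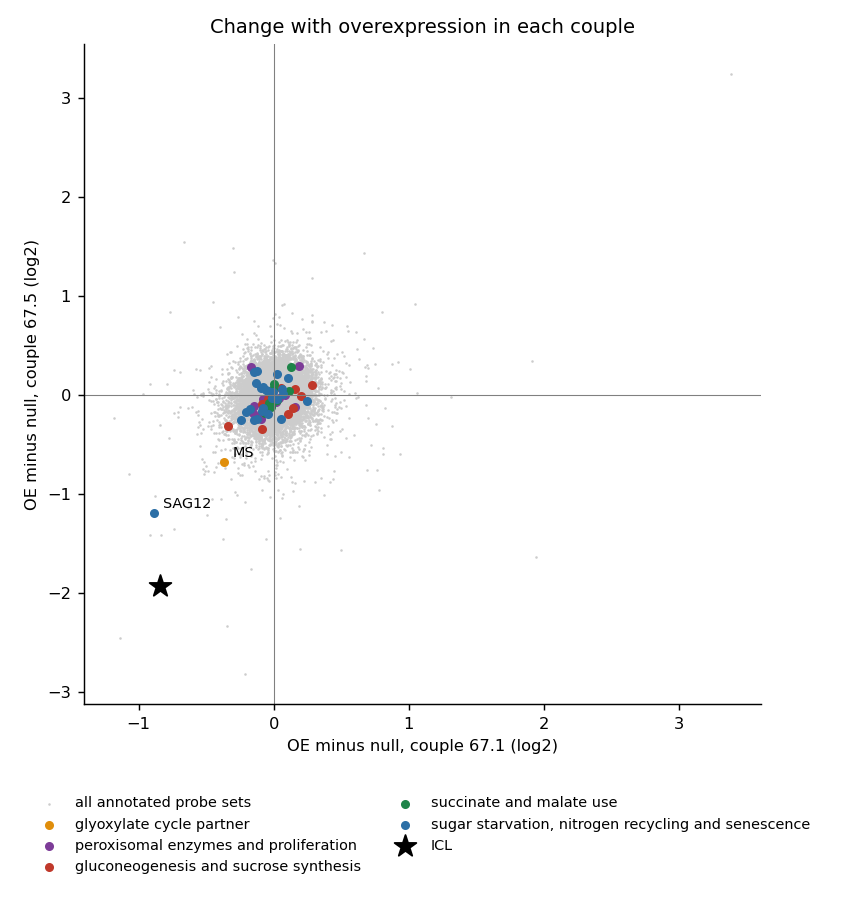
Log2 difference, OE minus null, in couple 67.1 (horizontal axis) and in couple 67.5 (vertical axis) for all annotated probe sets (grey), the 59 genes of the 5 lists (colours) and ICL (star). ICL lies at -0.84 and -1.92, away from the cloud at the lower left, with SAG12 and MS as the list members nearest to it.

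The direct partner of ICL is malate synthase, which uses the glyoxylate that isocitrate lyase makes. The gene listed under the synonym MS, the symbol of malate synthase (LOC9268154, chromosome 4), had log2 levels of 5.37, 5.24 and 5.03 in OE 67.1, against 5.36, 5.85 and 5.54 in null 67.1. In couple 67.5 its levels were 4.93, 5.33 and 4.63 in OE 67.5, against 5.75, 5.57 and 5.58 in null 67.5. The arrays of MS overlapped in couple 67.1 and were separate in couple 67.5, with the overexpressing line lower on average in both. Its log2 difference was -0.52 ± 0.11 as the mean of both couples (limma, adjusted p = 0.111). It was -0.37 ± 0.16 in couple 67.1 (limma, adjusted p = 1.0) and -0.67 ± 0.16 in couple 67.5 (limma, adjusted p = 0.12). The null lines of MS differed by -0.05 ± 0.16, beside -0.53 ± 0.11 for ICL. MS followed ICL over the 12 arrays with a Pearson r of 0.82, a description of arrays that share 4 lines. The share of the lines in that r was not tested.

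No gene for phosphoenolpyruvate carboxykinase, an enzyme on the path from malate to sugar, carried a name among the annotated probe sets. Of 11 genes of gluconeogenesis and sucrose synthesis, 5 were higher and 6 lower with overexpression, and none passed. PPDK1, a pyruvate orthophosphate dikinase gene, averaged 3.80 ± 0.04 in OE 67.1 and 4.14 ± 0.18 in null 67.1 (log2 level, SD, n = 3). It averaged 3.81 ± 0.08 in OE 67.5 and 4.12 ± 0.13 in null 67.5. The overexpressing and null arrays of PPDK1 were separate in both couples, with a log2 difference of -0.32 ± 0.07 as their mean (limma, adjusted p = 0.123). Of all annotated probe sets, 0.66% were lower without overlap in both couples. All of these levels lay below the array medians of 4.52 to 4.55. CFBP1, a fructose-1,6-bisphosphatase gene by its symbol, differed by -0.22 ± 0.07 (limma, adjusted p = 0.331), and OsSPS2F, of sucrose phosphate synthase, by 0.11 ± 0.06 (limma, adjusted p = 0.608).

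Peroxisomal enzymes and factors of peroxisome proliferation had 12 measured genes, of which 5 were higher and 7 lower with overexpression, with a median log2 difference of -0.04. None passed. CAT-A and CAT-B encode catalases, which remove the hydrogen peroxide that peroxisomal oxidation makes. They stood at 0.24 ± 0.10 (limma, adjusted p = 0.512) and -0.16 ± 0.06 (limma, adjusted p = 0.461). GLO5, of glycolate oxidase, stood at -0.17 ± 0.06 with the same adjusted p.

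Succinate, the other product of isocitrate lyase, is oxidised by succinate dehydrogenase, and malate can leave by malic enzyme. The 10 genes of succinate and malate use had 5 members higher and 5 lower with overexpression, and none passed. The member with the smallest p, ME6 of malic enzyme, averaged 7.0 ± 0.05 in OE 67.1 and 6.88 ± 0.14 in null 67.1 (log2 level, SD, n = 3). It averaged 7.17 ± 0.13 in OE 67.5 and 6.89 ± 0.20 in null 67.5, and its arrays overlapped in both couples (limma, adjusted p = 0.465 for the mean). SDH7 of succinate dehydrogenase differed by -0.12 ± 0.07, and NADP-ME2 of malic enzyme by 0.08 ± 0.07, as the mean of both couples.

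The list of sugar starvation, nitrogen recycling and senescence had 25 members, 11 higher and 14 lower with overexpression, and none passed. SAG12 (LOC4324982), a cysteine protease gene whose Arabidopsis namesake marks leaf senescence, had the largest difference of all 59 genes. Its log2 levels were 4.85, 4.65 and 4.59 in OE 67.1, against 5.11, 5.24 and 6.39 in null 67.1. In couple 67.5 they were 4.77, 4.59 and 4.74 in OE 67.5, against 6.41, 5.19 and 6.06 in null 67.5. The overexpressing arrays were low and close together, and the null arrays were higher and scattered, without overlap in either couple. That separation was seen for 0.66% of annotated probe sets. The log2 difference of SAG12 was -1.04 ± 0.21 as the mean of both couples (limma, adjusted p = 0.0778). It was -0.89 ± 0.30 in couple 67.1 (limma, adjusted p = 1.0) and -1.19 ± 0.30 in couple 67.5 (limma, adjusted p = 0.147). For the mean of both couples SAG12 passed without null 67.5 replicate 2 (-1.21, limma, adjusted p = 0.0184) and under none of the other 15 alternatives. In couple 67.5 SAG12 passed without null 67.5 replicate 2 (-1.54, limma, adjusted p = 0.0359) or null 67.1 replicate 3 (-1.19, adjusted p = 0.0381). It passed there under none of the other 15 alternatives. Without 1 array, 14 to 46 of all probe sets passed for the mean of both couples and 20 to 88 in couple 67.5. SAG12 had a Pearson r of 0.78 with ICL over the 12 arrays. The other members named by the rule were AMY3E, an alpha-amylase gene, at -0.25 ± 0.07, and OsGS1;2, of cytosolic glutamine synthetase, at -0.20 ± 0.08.

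**Figure D3:**
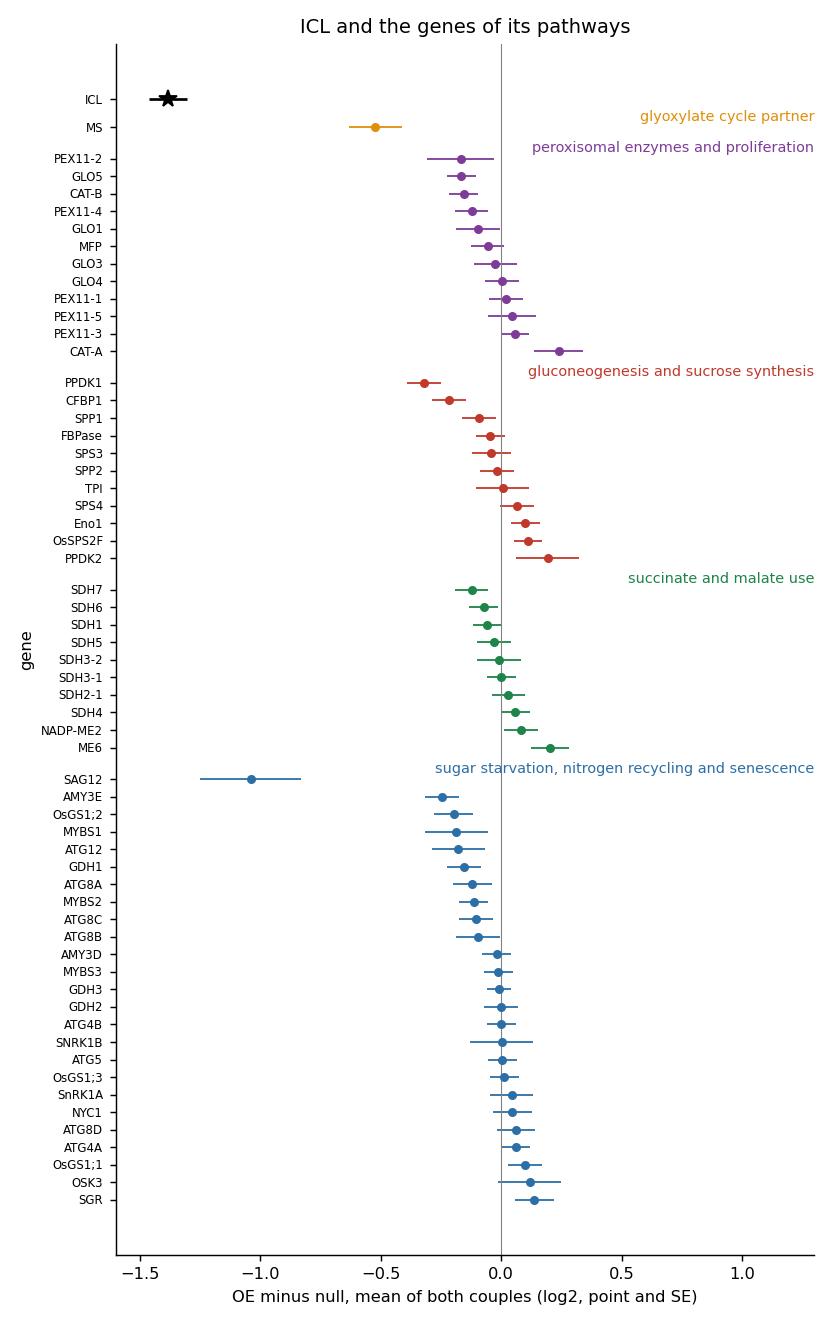
Log2 difference, OE minus null as the mean of both couples (horizontal axis, point and SE), for ICL and the 59 genes of the 5 lists (vertical axis, grouped by list and coloured as in the plot of both couples). ICL stands at -1.38, SAG12 at -1.04 and MS at -0.52, and the other genes lie between -0.32 and 0.24; none of the 59 passed.

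The null sisters were compared in the same way, since ICL differed between them. None of the 59 genes passed for null 67.1 minus null 67.5, where 0.231% of all probe sets passed (limma, unadjusted p under 0.05 for 14, against 17.5% of all probe sets, smallest adjusted p = 0.0795). In direction 17 were higher and 42 lower in null 67.1, with a median log2 difference of -0.12, against -0.01 over all probe sets. All 10 genes of succinate and malate use were lower in null 67.1, with a median of -0.16. Without null 67.5 replicate 1, 4 of the 59 passed (ATG8A, FBPase, GLO3 and PEX11-5). Over all probe sets, 10 to 1113 of 24251 passed between the null lines without 1 array, so these 4 are not read as a result about the lists. ICL kept a difference between the null lines in the same direction without any 1 array (-0.60 to -0.45). Between the overexpressing lines, OE 67.1 minus OE 67.5, none of the 59 passed in limma, where 0.829% of all probe sets did (unadjusted p under 0.05 for 13, against 25.7% of all probe sets). There 17 were higher and 42 lower in OE 67.1, whereas ICL was higher in OE 67.1.

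Tissues that could share the stem base sample were followed through 3 marker lists. Seed and scutellum, where the glyoxylate cycle is known to be active in germination, had 14 markers, of which 12 lay below the array median on average. Their summed level on a log2 scale was 7.95 to 8.02 in OE 67.1, against 7.91 to 7.99 in null 67.1, and 7.97 to 8.05 in OE 67.5, against 7.92 to 8.04 in null 67.5. These ranges overlapped within both couples. The sum leans on its brightest probe set, that of the globulin gene GLB1 with a mean of 51.6% of the summed level, so it says little of the dimmer markers. The alpha-amylase genes AMY1A and AMY3E were lower with overexpression without overlap in both couples, as ICL was, and did not pass. Lower arrays without overlap in both couples were seen for 0.66% of annotated probe sets. Both genes lay below the array median on every array. AMY1A averaged 2.28 in OE 67.1 and 2.78 in null 67.1, and 2.25 in OE 67.5 and 2.96 in null 67.5 (log2 level). The part of seed tissue in the ICL values was not tested. Of the 14 seed markers 7 were higher and 7 lower as the mean of both couples and none passed in limma, where 0.186% of all probe sets did (unadjusted p under 0.05 for 3, against 9.0%). AMY1A had the largest difference of them, -0.60 ± 0.12 (limma, adjusted p = 0.0783). AMY1A passed without null 67.5 replicate 2 (-0.72, limma, adjusted p = 0.012) and under none of the other 14 alternatives. AMY1.5, another alpha-amylase gene, was lower in OE 67.1 than in OE 67.5 by a log2 difference of -0.46 ± 0.10 (limma, adjusted p = 0.047), a contrast in which 0.829% of all probe sets passed. AMY3B, with the third smallest p of the list, stood at -0.17 ± 0.07. The call of AMY1.5 was lost under 12 of 17 alternatives. In couple 67.5 AMY1.5 was higher with overexpression without overlap, by 0.38 ± 0.10, the opposite direction to ICL. In couple 67.1 its arrays overlapped, with a difference of -0.11 ± 0.10.

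The summed level of 11 green tissue markers was 10.96 to 11.09 in OE 67.1, against 10.99 to 11.11 in null 67.1, and 10.98 to 11.12 in OE 67.5, against 11.27 to 11.43 in null 67.5. All 11 were lower with overexpression as the mean of both couples, with a median log2 difference of -0.13, and none passed in limma (unadjusted p under 0.05 for 5, against 9.0% of all probe sets). Between the null lines all 11 were lower in null 67.1, with a median of -0.29, and none passed in limma (unadjusted p under 0.05 for 8, against 17.5% of all probe sets). PSAH of photosystem I, RCABP69 of the light-harvesting complex and PSB28 of photosystem II stood at -0.28 ± 0.11, -0.17 ± 0.06 and -0.19 ± 0.07 as the mean of both couples. The null 67.5 arrays were thus highest in these markers as they were in ICL, and the part of green tissue in the ICL values was not tested. The root list held 29 genes matched by symbol, of aquaporins and of silicon, phosphate, nitrate and ammonium transporters. Whether their signal came from root tissue was not tested. The summed level of these 29 root markers was 12.31 to 12.40 in OE 67.1, against 12.41 to 12.53 in null 67.1, and 12.43 to 12.57 in OE 67.5, against 12.58 to 12.69 in null 67.5. Of these 29, 27 were lower as the mean of both couples with a median of -0.10. TIP1;2, a tonoplast aquaporin gene, was the 1 that passed (-1.79 ± 0.16, limma, adjusted p = 0.000134), where 0.186% of all probe sets did. It also passed in couple 67.5 (-2.45 ± 0.23, limma, adjusted p = 0.000155), where 0.342% of all probe sets did. An unadjusted p under 0.05 was reached by 8 of the 29, against 9.0% of all probe sets. The silicon channel genes Lsi6 and Lsi1 stood at -0.27 ± 0.08 and -0.24 ± 0.07 without passing. The summed root markers did not overlap between the overexpressing line and its sister in either couple, but only narrowly. The nearest arrays stood at 12.40 against 12.41 in couple 67.1 and at 12.57 against 12.58 in couple 67.5. Across couples, OE 67.5 overlapped null 67.1. The aquaporin gene TIP1-1 made a mean of 27.0% of this sum, and the part of root tissue in the ICL values was not tested.

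The genes next to ICL on chromosome 7 were examined for differences of their own. In the gene order of assembly ASM3414082v1, the 10 nearest measured genes on each side of ICL were taken. Of these 20, 13 lay below the median level of annotated probe sets on average. The part of signal level in their differences was not tested. As the mean of both couples none of the 20 passed in limma, where 0.186% of all probe sets did (unadjusted p under 0.05 for 2, against 9.0%), and their log2 differences ran from -0.17 to 0.32, against -1.38 for ICL. The nearest genes before ICL, LOC4343440 and LOC4343438, stood at -0.17 ± 0.08 and -0.11 ± 0.08. The nearest after it, LOC4343443 and LOC4343444, stood at 0.32 ± 0.08 and 0.26 ± 0.10, the opposite direction to ICL (limma, adjusted p = 0.22 and 0.459). None of the 20 passed in couple 67.1, where 0.0165% of all probe sets did (unadjusted p under 0.05 for 2, against 3.46%), or in couple 67.5, where 0.342% did (2, against 10.8%).

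Between the null lines none of the 20 neighbours passed either, where 0.231% of all probe sets did (limma, unadjusted p under 0.05 for 3, against 17.5%). In direction 17 of the 20 were higher in null 67.1, with a median log2 difference of 0.18, against -0.01 over all probe sets, and all 10 genes before ICL were higher there, with a median of 0.19. ICL differed by -0.53 on the same scale, so its sign was opposite to that of most neighbours there. Without null 67.5 replicate 1 the neighbour LOC4343436 passed between the null lines, where 10 to 1113 of all probe sets passed without 1 array. Between the overexpressing lines 16 of the 20 were higher in OE 67.1, with a median of 0.19, and 9 of the 10 before ICL, and ICL at 0.55 had the same sign as most of them. Between OE 67.1 and OE 67.5, 1 neighbour passed, LOC4343431, the ninth measured gene before ICL, where 0.829% of all probe sets passed (unadjusted p under 0.05 for 4 of the 20, against 25.7%). It averaged 5.19 ± 0.13 in OE 67.1 and 4.65 ± 0.10 in OE 67.5 (log2 level, SD, n = 3), a difference of 0.54 ± 0.10 (limma, adjusted p = 0.0365), and this call was lost under 8 of 17 alternatives.

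**Figure D4:**
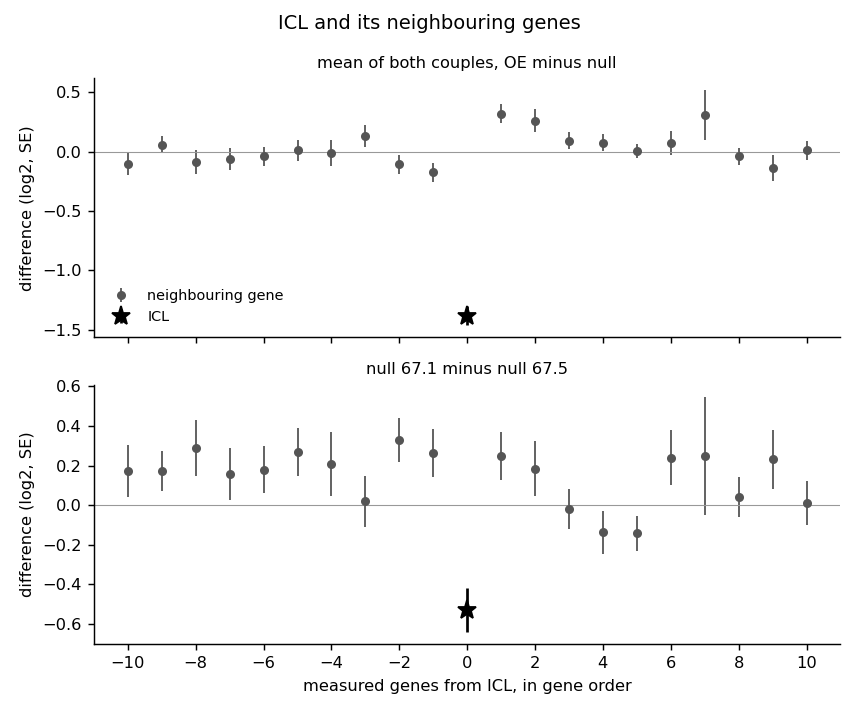
Log2 difference with its SE (vertical axis) for ICL (star) and the 10 nearest measured genes on each side in gene order (horizontal axis, negative before ICL), as OE minus null for the mean of both couples (upper panel) and as null 67.1 minus null 67.5 (lower panel). The 20 neighbours lie between -0.17 and 0.32 in the upper panel, and 17 of them lie above 0 in the lower panel, where ICL stands at -0.53.

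The genes with the pattern most like that of ICL were sought among 1739 single-gene probe sets whose 4 line means spanned at least 0.5 on the log2 scale. Likeness was the Pearson r with ICL over the 12 arrays, and its median over these genes was 0.15. It is a description without a test, since all arrays share the 4 lines and the genes were picked for it. The highest was that of TIP1;2 (LOC4324303), with r = 0.96 and mean log2 levels of 4.46 in OE 67.1, 5.60 in null 67.1, 3.96 in OE 67.5 and 6.42 in null 67.5. Its range between lines, 2.45, was wider than the 1.92 of ICL, and its null 67.5 arrays overlapped those of null 67.1, as those of ICL did not.

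LOC4332560 followed with r = 0.96 and means of 7.14 in OE 67.1, 7.51 in null 67.1, 7.02 in OE 67.5 and 7.76 in null 67.5. The next were LOC4336193 and LOC4324459 with r = 0.90, then LOC4334822 and LOC4350216 with r = 0.89. None of these 5 carries an informative name in the table used. All 6 most similar genes had their line means in the order of ICL, and none had its 4 lines fully separated. After the line means were taken out, their r with ICL lay between 0.06 and 0.66, below the r over all 12 arrays. These 6 genes were picked for a high r over all 12 arrays, so this drop supports nothing further. The span of their line means was 2.45 for TIP1;2, 0.74 for LOC4332560 and 0.54 to 1.14 for the other four.

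The pattern most opposite to ICL was that of PRR1 (LOC4330000), a pseudo-response regulator gene of the clock family, with r = -0.93. Its mean log2 levels were 7.08 in OE 67.1, 6.80 in null 67.1, 7.39 in OE 67.5 and 6.65 in null 67.5, the exact reverse of the order of ICL. GRF3 (LOC4336879), a growth-regulating factor gene by its symbol, had r = -0.92 and means of 7.50 in OE 67.1, 7.33 in null 67.1, 7.72 in OE 67.5 and 7.17 in null 67.5. LOC4331887 had r = -0.91 with means of 9.68 in OE 67.1, 6.30 in null 67.1, 9.50 in OE 67.5 and 6.25 in null 67.5. It separated overexpressing from null lines as ICL did, with log2 differences of 3.38 ± 0.11 in couple 67.1 and 3.24 ± 0.11 in couple 67.5. These were the largest rises of all 24251 annotated probe sets in both couples. The differences of ICL were -0.84 ± 0.11 and -1.92 ± 0.11. A relation of LOC4331887 to the transgene was not tested. LOC4347535 had r = -0.90.

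**Figure D5:**
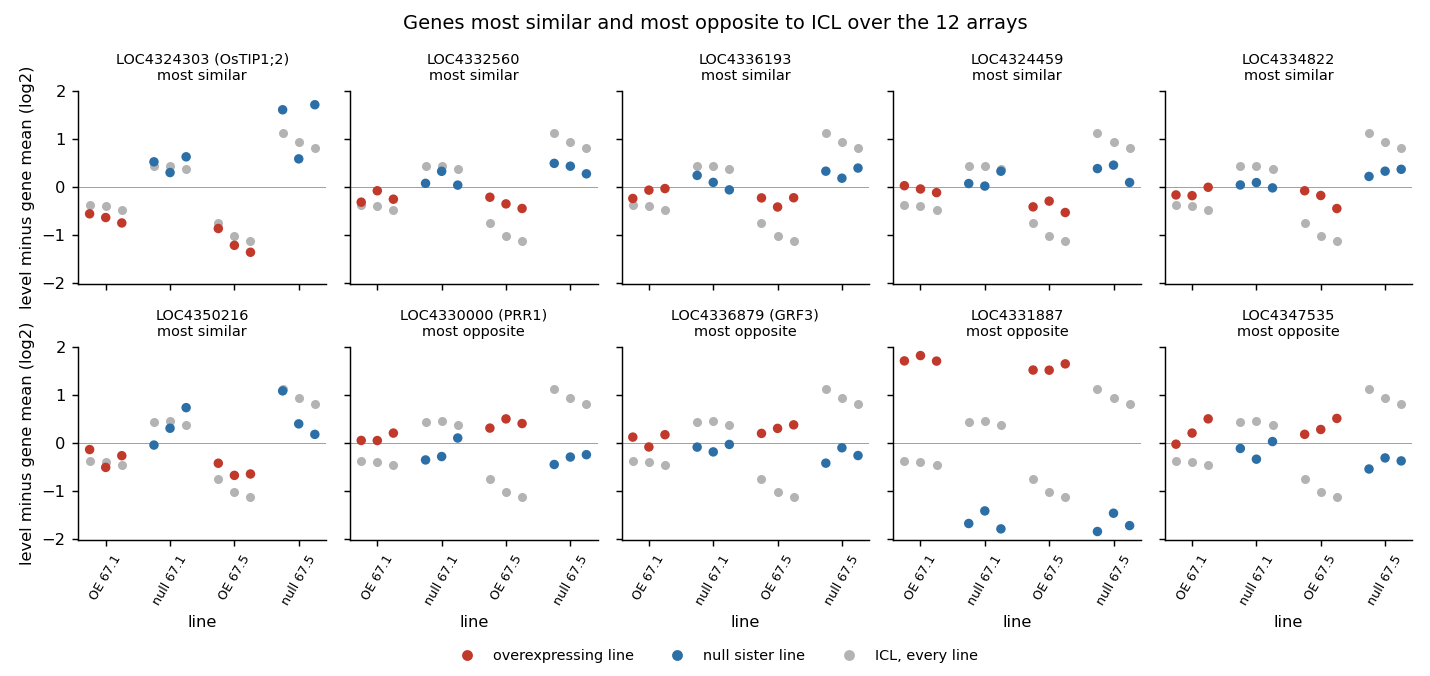
Log2 level minus the mean of the gene over the 12 arrays (vertical axis) by line (horizontal axis) for the 6 genes most similar and the 4 most opposite to ICL, with overexpressing lines in red, null lines in blue and ICL in grey in every panel. TIP1;2 covers a wider range than ICL, and LOC4331887 averages 9.68 in OE 67.1 and 9.50 in OE 67.5 before centring, while ICL is lowest in OE 67.5.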

How the data were processed

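Biotin-labelled cRNA from 6 µg total RNA was hybridised to 1-colour Affymetrix arrays, 1 per sample (12), per the labels' protocols. The authors deposited log2 values made with RMA, per the submitters' processing notes; the RMA version is not given in the sources used here, nor is the genome build or annotation. The method makes the arrays alike and compresses differences of weak signals. Array medians lay at 4.34 to 4.39 over 36643 probe sets, and precision is limited by having 12 arrays. The platform annotation paired 24251 probe sets with genes, 24161 with 1 gene and 90 with several, and left 12392 unnamed; all 24251 were fitted. Symbols came from the RefSeq table of assembly ASM3414082v1.

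With limma 3.58.1 in R 4.3.3 a model of 4 line means was fitted to all 12 arrays (8 residual degrees of freedom), with two-sided tests, Benjamini-Hochberg adjustment over 24251 probe sets and a threshold of 0.05. An exact permutation test of 3 against 3 cannot go below p = 0.1. P-values rest on the spread between repetitions, and the labels give no scan date or other batch. The labels' repetition numbers do not say that they mark a shared day.

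ICL and the lists were chosen with earlier results of these data known. The lists were matched on symbols after the annotation was seen, since no gene descriptions were at hand; AMY3D and AMY3E stand in a pathway and in the seed list. The rule for named genes took ICL, malate synthase, every list member that passed, up to 3 members per list with the smallest p for the mean of both couples, the 2 nearest neighbours on each side and any neighbour that passed, and the 6 most similar and 4 most opposite genes. Alternatives were leaving out each array, the repetition number as a block, a further quantile normalization, line medians, all probe sets, brighter probe sets and only the lines compared.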

Additional observations from a re-analysis of the deposited data

How the results depend on the processing

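All 6 differences of ICL kept their direction and moved by less than the spread between repetitions under each of their 15 alternatives. Without any 1 array the mean of both couples lay between -1.44 and -1.34, couple 67.1 between -0.86 and -0.81, couple 67.5 between -2.04 and -1.84, and the difference of the changes between -1.19 and -1.0. The null lines differed by -0.60 to -0.45 and the overexpressing lines by 0.47 to 0.66. Without 1 array, limma called 0 to 1 of the 59 pathway genes as the mean of both couples and in couple 67.5, 0 to 4 between the null lines and none in couple 67.1, and 0 to 1 of the 20 neighbours between the null lines.

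Same-numbered arrays of different lines did not deviate together throughout (r of -0.25 to 0.42, over 0.1 in 11 of 18 pairs, and 7 of 12 arrays correlated best with their own number), so the numbers were not taken to pair the samples. With the repetition number as a block, 1 pathway gene passed between the null lines (FBPase, adjusted p = 0.0429), the differences of ICL were the same (mean of both couples -1.38), and 507 probe sets passed between the null lines and 2048 between the overexpressing lines. The counts over all probe sets moved by more than 1.5 times without single arrays: 14 to 46 for the mean of both couples (45 with all arrays), 2 to 6 in couple 67.1 (4), 20 to 88 in couple 67.5 (83), 10 to 1113 between the null lines (56) and 20 to 930 between the overexpressing lines (201). The cause of these shifts was not tested. For the mean of both couples, fitting only the lines compared is the fit already given, since both couples enter it. How far ICL stood above background was not available from RMA values.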
